A study of Mus musculus with 5 samples.

Results

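Btg1, Btg2, Tob1 and Tob2 code for 4 members of the BTG and TOB family of antiproliferative proteins, and they are 4 of the 32285 genes in the deposited matrices. They were chosen by symbol because, between barcodes with and without a UMI of Irf4 or Nr4a1, Btg1 stood against many other genes of T cell quiescence in these same data, so the values below describe them and test nothing. The cells were CD4 T cells of an OT-II mouse, whose transgenic T cell receptor (TCR) recognises a peptide of ovalbumin (OVA), isolated from a naive spleen by negative selection. The labels name 5 groups of 1 sample each: OT-II cells with antigen-presenting cancer-associated fibroblasts (apCAFs) of the pancreatic tumor clone rKPC plus OVA, the same with DMSO, OT-II cells with sKPC apCAFs plus OVA, the same with DMSO, and OT-II cells alone. Cocultures ran overnight, apCAFs were sorted from tumors, and the sources used here give no ages of the animals.

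BTG and TOB proteins share a short amino-terminal domain with which they hold the CCR4-NOT complex, the main enzyme that shortens the poly(A) tails of mRNA. Btg1 and Btg2 also bind the arginine methyltransferase Prmt1, while Tob1 and Tob2 carry a longer carboxy-terminal part that binds the poly(A)-binding protein Pabpc1. In mouse T cells, Btg1 and Btg2 together are known to keep naive cells quiescent by holding down mRNA, and human Tob1 is known as a repressor of T cell activation and of the cytokine IL-2.

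The 4 genes lie on 4 chromosomes (GRCm38, GENCODE vM21). Btg1 (ENSMUSG00000036478) spans chr10:96617006-96622809 on the plus strand, and Btg2 (ENSMUSG00000020423) spans chr1:134075170-134079120 on the minus strand. Tob1 (ENSMUSG00000037573) spans chr11:94211454-94215495 on the plus strand, and Tob2 (ENSMUSG00000048546) spans chr15:81848272-81858796 on the minus strand. Tob2 overlaps the antisense gene Gm49476, and since the sources used here do not say whether counting used strand, reads of the pair may not have been told apart. The pseudogenes Btg1-ps1 and Btg1-ps2 had 0 UMIs (unique molecular identifiers, each marking 1 captured RNA molecule).

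The promoters are shown because the 4 genes differed in direction below. Each run is the RefSeq window of 300 bases around the annotated start (GRCm38.p6), 5′ to 3′ on the gene's strand, and all 4 genes had one. Capitals mark the forkhead motif TGTTTAC, the cyclic AMP response element TGACGTCA, the CCAAT box and TATAAA on either strand. The Tob2 start used by RefSeq lies inside the GENCODE gene.
Btg1, chr10:96616751-96617050, plus strand: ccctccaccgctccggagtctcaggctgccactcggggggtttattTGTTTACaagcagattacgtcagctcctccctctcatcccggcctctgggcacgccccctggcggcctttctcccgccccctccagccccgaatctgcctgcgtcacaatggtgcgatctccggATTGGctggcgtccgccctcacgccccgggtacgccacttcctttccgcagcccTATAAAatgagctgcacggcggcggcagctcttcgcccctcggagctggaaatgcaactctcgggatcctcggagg
Btg2, chr1:134079106-134079405, minus strand: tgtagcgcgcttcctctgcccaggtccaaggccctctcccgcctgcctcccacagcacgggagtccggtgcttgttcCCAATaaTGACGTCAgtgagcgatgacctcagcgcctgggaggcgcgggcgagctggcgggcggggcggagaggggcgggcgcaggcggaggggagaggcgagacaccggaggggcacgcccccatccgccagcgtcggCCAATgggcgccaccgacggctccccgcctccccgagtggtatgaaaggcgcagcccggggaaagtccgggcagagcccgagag
Tob1, chr11:94211204-94211503, plus strand: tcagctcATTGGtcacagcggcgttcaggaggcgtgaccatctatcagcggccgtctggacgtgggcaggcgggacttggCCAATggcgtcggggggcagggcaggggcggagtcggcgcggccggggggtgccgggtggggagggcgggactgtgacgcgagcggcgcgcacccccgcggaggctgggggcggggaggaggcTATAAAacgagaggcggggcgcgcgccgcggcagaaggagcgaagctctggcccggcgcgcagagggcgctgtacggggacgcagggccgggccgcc
Tob2, chr15:81858277-81858576, minus strand: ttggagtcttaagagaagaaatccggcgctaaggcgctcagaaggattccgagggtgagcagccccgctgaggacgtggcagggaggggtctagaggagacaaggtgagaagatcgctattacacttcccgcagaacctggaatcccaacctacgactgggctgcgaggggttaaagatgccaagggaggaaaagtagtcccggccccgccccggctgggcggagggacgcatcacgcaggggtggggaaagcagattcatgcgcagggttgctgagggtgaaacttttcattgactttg

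The Btg1 window held TGTTTAC at 204 bases before the start, a motif found in 3.65% of the 32851 windows of the table. The Btg2 window held TGACGTCA, which is its own reverse complement, at 166 bases before the start, and 1.79% of windows hold it. TATAAA stood at 26 bases before the start in Btg1 and at 47 in Tob1, against 13.6% of windows with it at any place, and CCAAT, present in 37.4% of windows, occurred in Btg1, Btg2 and Tob1. The Tob2 window had no capitals. The early growth response motif GCGGGGGCG (2.91% of windows), the AP-1 motif TGANTCA (7.81%) and the interferon motif TTCNNNGAA (8.30%) were in none of the 4 windows. These matches describe letters and say nothing about binding.

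The 2 deposited matrices, G and H, carry 3 and 2 barcode suffixes, while the labels tie 2 and 3 samples to them. The libraries of G are called Ga, Gb and Gc and those of H are called Ha and Hb, all unassigned, and no value below is a value of a culture condition. They held 5943, 3549, 7136, 4630 and 4365 barcodes, with 27339447 to 61279131 UMIs, and any pair of libraries shared between 2 and 14 barcode sequences. The matrices were aggregated separately, and the sources used here do not say whether depth was equalised between libraries. Of 24890 barcodes with at least 500 UMIs and at most 10% mitochondrial UMIs, 15054 held a UMI of Cd4, and 1435 of these also held a UMI of Irf4 or Nr4a1, genes induced by TCR signaling. These 1435 are called positive here and the other Cd4-positive barcodes silent. The T cell gene Cd3e was detected in 88.5% to 93.9% of positive and 90.9% to 93.4% of silent barcodes of a library.

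Positive barcodes were 607 of 3166 for Ga (19.2%), 50 of 2142 for Gb (2.33%), 684 of 3892 for Gc (17.6%), 61 of 3080 for Ha (1.98%) and 33 of 2774 for Hb (1.19%). In barcodes with hemoglobin transcripts and no Cd3e or Cd4, which should lack both genes, 5 of 174 held such a UMI (2.87%, 0.939% to 6.58%, exact Clopper-Pearson), at a median of 8549 UMIs. The shares in Gb, Ha and Hb lay at or below that level, and the part of free RNA in them was not tested. With barcodes thinned to 1500 UMIs the shares were 0.618% for Gb, 0.365% for Ha and 0.329% for Hb, against 0 of 156 hemoglobin barcodes, which allows a share of up to 2.34% (exact Clopper-Pearson). Nr4a3, another TCR-response gene that the split did not use, was at 78.2 against 2.32 CPM in positive and silent barcodes of Gb, 27.0 against 3.70 in Ha and 2.94 against 2.17 in Hb, where positive barcodes held 1 UMI of it. The median total was also higher in positive barcodes, with 9886 against 8454 UMIs in Ga and 9878 against 8256.5 in Gc. Levels are therefore given as CPM, the UMIs of a gene per 1000000 UMIs of the summed class, and all intervals are exact at 95%, treat UMIs as independent and cover counting error only. Gc stood apart from the other libraries in the T cell receptor gene Trac, with 3601 CPM in silent barcodes against 6929 to 7589 CPM in the other 4 libraries.

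Btg1 was higher in positive than in silent barcodes in 4 of 5 libraries. Its level in positive barcodes was 1062 CPM for Ga (1038 to 1087), 1212 for Gb (1118 to 1311), 1305 for Gc (1281 to 1329.9), 636 for Ha (581 to 695) and 1022 for Hb (917 to 1135). In silent barcodes it was 825 CPM for Ga (813 to 836), 804 for Gb (791 to 818), 1059.9 for Gc (1048 to 1072), 779.6 for Ha (769 to 790.4) and 813 for Hb (801 to 824). The class intervals overlap in no library, and Ha is the library in which positive barcodes were the lower ones. The log2 ratio of CPM was 0.37 for Ga (0.33 to 0.40), 0.59 for Gb (0.47 to 0.71), 0.30 for Gc (0.27 to 0.33), -0.29 for Ha (-0.42 to -0.16) and 0.33 for Hb (0.17 to 0.48).

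**Figure D1:**
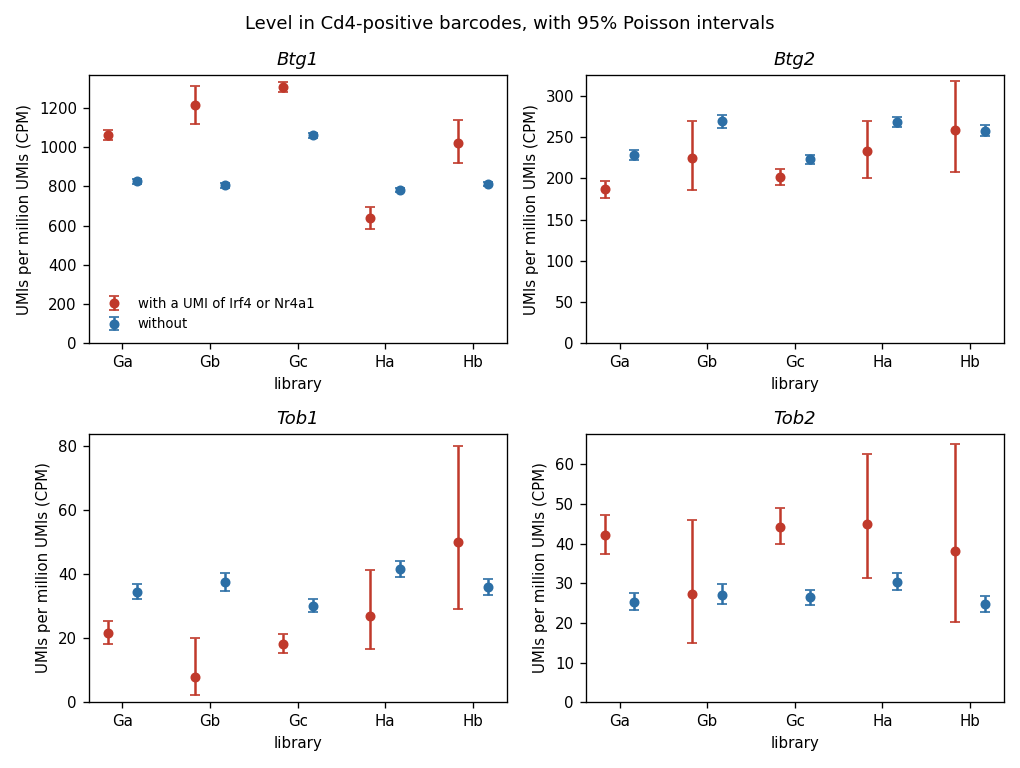
CPM of Btg1, Btg2, Tob1 and Tob2 (vertical axes) in the 5 unassigned libraries (horizontal axes), with barcodes that hold a UMI of Irf4 or Nr4a1 in red at the left of each pair and silent ones in blue at the right; bars are 95% Poisson intervals. Btg1 is higher in red in all libraries except Ha, Tob1 is lower in red except in Hb, and the red intervals are wide for Tob1 and Tob2 in Gb, Ha and Hb, where 50, 61 and 33 barcodes were positive.

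In Ga and Gc the Btg1 difference showed in counts per barcode as well as in sums. With each barcode thinned to 1500 UMIs, 4 or more Btg1 UMIs were found in 10.6% of positive against 4.85% of silent barcodes in Ga, and in 16.2% against 9.39% in Gc. At least 1 Btg1 UMI was found in 73.8% of positive (70.0% to 77.2%) against 67.6% of silent barcodes (65.8% to 69.5%) in Ga, and in 82.3% (79.2% to 85.1%) against 74.9% (73.4% to 76.4%) in Gc. The class intervals overlapped elsewhere, with 80.0% (66.3% to 90.0%) against 67.7% in Gb and 72.7% (54.5% to 86.7%) against 67.7% in Hb. In Ha the positive share was the lower one, at 58.3% (44.9% to 70.9%) against 65.2%. Without thinning the shares were 99.0% against 98.1% in Ga and 99.3% against 98.7% in Gc, and almost every barcode held the gene. Per barcode rather than as CPM, positive barcodes held 12.1 against 7.29 Btg1 UMIs in Ga and 16.1 against 9.43 in Gc, and in Ha 8.11 against 6.77. These last counts are not thinned and carry depth, with mean totals of 12753 against 8688 UMIs in Ha.

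In Ha the sign of the Btg1 ratio depended on which barcodes entered and on scaling, and it held under 9 of 16 alternatives. With other cell types left in, it turned with thinned barcodes, with the mean over barcodes of CPM, and without the 6% of barcodes with most UMIs. The positive barcodes of Ha held more transcripts of myeloid and B cells. The 5 myeloid markers summed to 500.1 against 60.7 CPM with S100a8 and S100a9 at 0 in both classes, and the 4 B cell markers to 41.1 against 8.58 CPM. Of 8 measured proliferation genes, 7 were past 1.5-fold higher in Ha with a median log2 ratio of 1.92, against 19.9% of all genes. The 8 CD4 T cell markers summed to 9435 CPM in positive against 13056 in silent barcodes of Ha. Without barcodes that held a marker of another cell type, 19 positive and 1000 silent barcodes of Ha remained and the Btg1 log2 ratio was 0.25. That step left out 42 positive and 2019 silent barcodes, most of both classes, and what turned the sign was not tested. The same step left 13 positive barcodes in Gb, with a ratio of 0.069, and with Cd3e in place of Cd4 the ratio in Gb was 0.017. In Ga and Gc the ratios without such barcodes were 0.35 and 0.34, close to those with them, while the myeloid sum in Ga was 412 against 45.3 CPM with all 5 markers above 0. Of the other lists, the 4 hemoglobin genes summed to 49.3 against 1196 CPM in Ga and 1511 against 1149 in Gc, and the 5 fibroblast markers to at most 5.86 CPM in any class.

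Btg2, a p53 target in other settings and the closest relative of Btg1, stood slightly the other way. In positive barcodes it was at 187 CPM for Ga (177 to 197), 225 for Gb (186 to 269.8), 202 for Gc (192 to 211), 233 for Ha (200.0 to 269) and 258 for Hb (207 to 318). In silent barcodes it was at 228 CPM for Ga (222 to 234), 269 for Gb (261 to 277), 223 for Gc (218 to 229), 268 for Ha (262 to 275) and 258 for Hb (251 to 264). The classes were separate in Ga and Gc and their intervals overlapped in Gb, Ha and Hb. The log2 ratio was -0.29 for Ga (-0.38 to -0.20), -0.26 for Gb (-0.54 to 0.0079), -0.15 for Gc (-0.22 to -0.069), -0.21 for Ha (-0.43 to 0.0070) and 0.0033 for Hb (-0.32 to 0.31). Mean Btg2 UMIs per barcode were higher in positive barcodes, with 2.13 against 2.02 in Ga and 2.48 against 1.98 in Gc. These means are not thinned and carry depth. Without thinning, Btg2 was detected in 72.8% of positive against 78.7% of silent barcodes in Ga, and in 72.4% against 79.3% in Gc. With thinned barcodes the shares were 23.8% against 27.9% in Ga, where the class intervals overlap, and 21.7% against 27.0% in Gc. In Gb, Ha and Hb the class intervals of both shares overlapped.

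Tob1 was lower in positive barcodes in 4 of 5 libraries, on far fewer UMIs. It was at 21.5 CPM for Ga (149 UMIs), 7.82 for Gb (4 UMIs), 18.1 for Gc (152 UMIs), 27.0 for Ha (21 UMIs) and 49.9 for Hb (17 UMIs) in positive barcodes. In silent barcodes it was at 34.5 CPM for Ga, 37.4 for Gb, 30.0 for Gc, 41.6 for Ha and 36.0 for Hb, on 644 to 1091 UMIs. Hb is the library in which positive barcodes were the higher ones, and there the class intervals overlap, as they do in Ha, while they are separate in Ga, Gb and Gc. The log2 ratio was -0.68 for Ga (-0.94 to -0.43), -2.26 for Gb (-4.14 to -0.90), -0.73 for Gc (-0.99 to -0.48), -0.62 for Ha (-1.32 to -0.0042) and 0.47 for Hb (-0.31 to 1.16). With thinned barcodes the ratio in Ga was -0.24, and in Ha it was 0.0064, while in Gc it was -0.65.

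Tob2 was higher in positive barcodes in Ga and Gc, and the other libraries had few UMIs of it. In positive barcodes it was at 42.1 CPM for Ga (292 UMIs), 27.4 for Gb (14 UMIs), 44.3 for Gc (373 UMIs), 45.0 for Ha (35 UMIs) and 38.2 for Hb (13 UMIs). In silent barcodes it was at 25.3 CPM for Ga, 27.2 for Gb, 26.5 for Gc, 30.3 for Ha and 24.9 for Hb. The classes were separate in Ga and Gc and overlapped in Gb, Ha and Hb. The log2 ratio was 0.73 for Ga (0.52 to 0.94), 0.0092 for Gb (-0.87 to 0.77), 0.74 for Gc (0.56 to 0.92), 0.57 for Ha (0.036 to 1.06) and 0.62 for Hb (-0.30 to 1.40). Without barcodes holding markers of other cell types the ratio in Ga was 0.44, and with thinned barcodes that in Gc was 0.21, both under 1.5-fold. In Ha the sign turned under 4 of 16 alternatives, with -0.46 for a split on Irf4 alone and -0.32 without the 6% of barcodes with most UMIs.

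With a fold of 1.5 as the size at which a gene is counted, and at least 100 UMIs over both classes, Ga and Gc each had 1 member higher (Tob2) and 1 lower (Tob1). Over all genes, 14.5% were that much higher and 11.0% lower in Ga, and 14.2% higher and 9.18% lower in Gc, while 11.4% of genes were higher and 5.81% lower in both libraries. In Gb, Btg1 was past the fold higher and Tob1 lower, against 16.6% and 12.8% of genes. In Ha Tob2 was past it higher and Tob1 lower, against 19.9% and 11.0% of genes, and in Hb Tob2 alone was past it, higher, against 15.9%. These counts add 0.5 UMI to each sum, for members as for all genes, and with that Tob2 in Ha was at a log2 ratio of 0.59, just past the fold at 0.58, against 0.57 without it. The median gene stood at a log2 ratio between -0.0015 in Ga and 0.10 in Ha, and neither these counts nor the shares over all genes were centred on it. Btg1 in Gb, at 0.593 beside a median of 0.063, and Tob2 in Ha, at 0.588, were past the fold of 0.585 only without centring. In either direction the shares were 25.5% for Ga, 29.4% for Gb, 23.4% for Gc, 30.9% for Ha and 30.5% for Hb. No member was past the fold in all 5 libraries, where 1.28% of genes were higher and 0.371% lower.

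**Figure D2:**
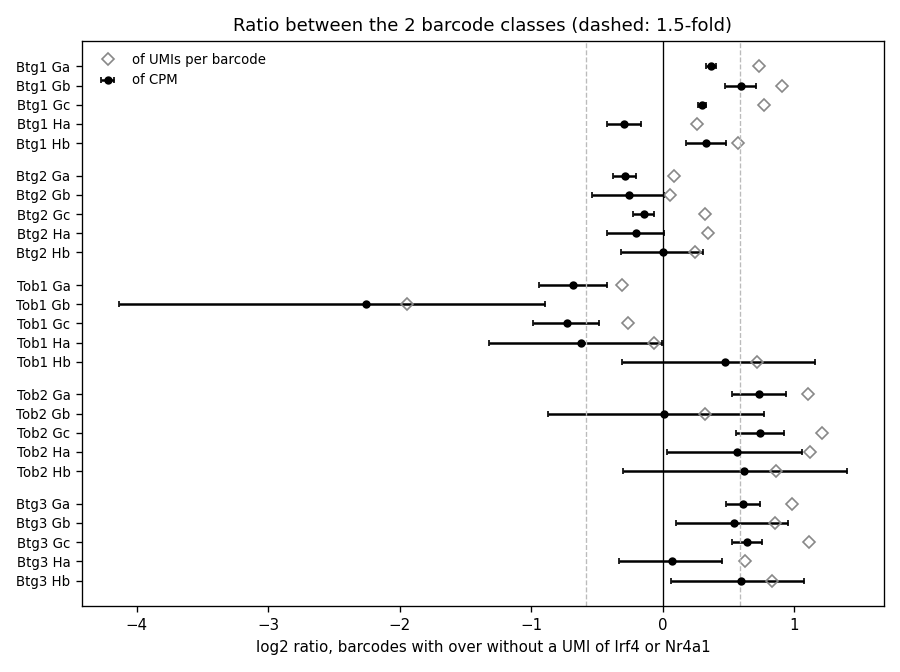
Log2 ratio of positive over silent barcodes (horizontal axis) for Btg1, Btg2, Tob1, Tob2 and Btg3 in each library (vertical axis); filled circles with 95% intervals are ratios of CPM, open diamonds are ratios of UMIs per barcode, and dashed lines mark 1.5-fold. Circles of Btg1 lie at 0.30 to 0.59 in all libraries except Ha at -0.29, and every diamond lies to the right of its circle, beside higher total UMIs in positive barcodes.

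The level of each gene was then followed over the number of Irf4 and Nr4a1 UMIs in a barcode, in Ga and Gc, where bins of at least 50 barcodes existed. The bins of 0, 1, 2 to 3, and 4 or more UMIs held 2559, 265, 65 and 277 barcodes in Ga and 3208, 294, 83 and 307 in Gc. Btg1 stepped up over every bin, with 825, 907, 1096 and 1171 CPM in Ga and 1059.9, 1155, 1309.8 and 1398 in Gc. The intervals of the bins of 2 to 3 and of 4 or more UMIs overlap in both libraries. Mean totals were 8836 UMIs in the lowest and 13089 in the highest bin of Ga, and 8896 and 15104 in Gc. Barcodes with a single UMI of Irf4 or Nr4a1 thus already differed in Btg1 from silent ones, by a log2 ratio of 0.14 in Ga (0.075 to 0.20) and 0.12 in Gc (0.072 to 0.18).

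Tob2 differed mainly in the highest bin, while Tob1 stepped down over every bin, with intervals of neighbouring bins that overlap. Tob2 was at 25.3, 24.3, 30.1 and 57.4 CPM in Ga and at 26.5, 28.1, 22.4 and 58.7 in Gc, over the same 4 bins. Tob1 was at 34.5, 32.1, 23.8 and 13.2 CPM in Ga and at 30.0, 23.9, 21.2 and 13.8 in Gc. Against silent barcodes, those with 4 or more UMIs had a Tob2 log2 ratio of 1.18 in Ga (0.94 to 1.41) and 1.15 in Gc (0.94 to 1.35), and a Tob1 ratio of -1.38 (-1.83 to -0.96) and -1.12 (-1.51 to -0.75). Btg2 had no such order, with 228, 193, 152 and 188 CPM in Ga and 223, 197, 222 and 200.1 in Gc.

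**Figure D3:**
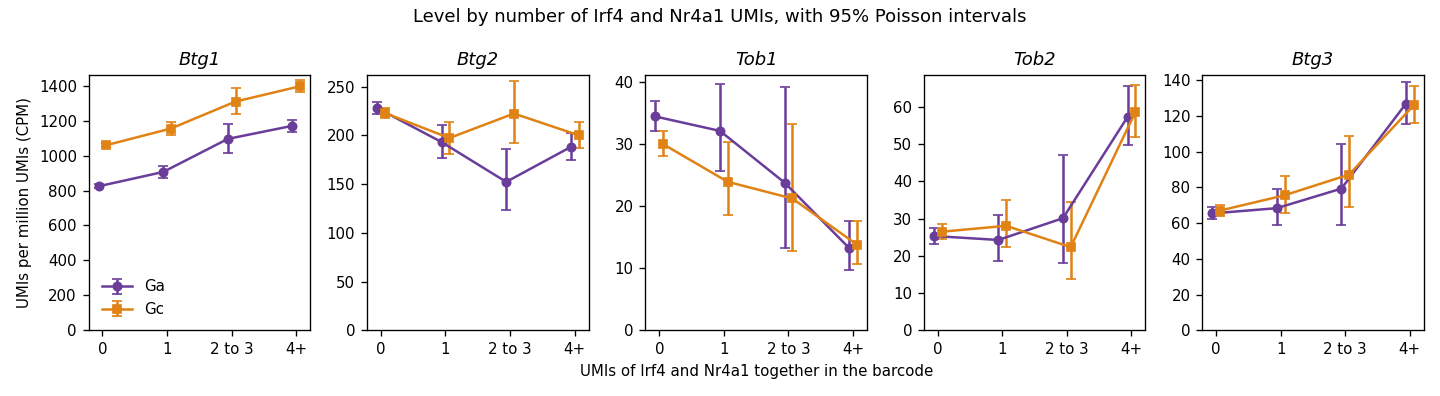
CPM of Btg1, Btg2, Tob1, Tob2 and Btg3 (vertical axes) by the number of Irf4 and Nr4a1 UMIs in a barcode (horizontal axes), for libraries Ga (purple circles) and Gc (orange squares) with 95% Poisson intervals. Btg1 steps up over all bins in both libraries, while Tob2 and Btg3 are highest and Tob1 lowest in barcodes with 4 or more UMIs. The Btg1 intervals at 2 to 3 and at 4 or more UMIs overlap.

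Btg2 differed between barcodes with Irf4 alone and those with Nr4a1 alone. In Ga, 213 barcodes held UMIs of both, 227 of Irf4 only and 167 of Nr4a1 only, and in Gc 227, 290 and 167. Btg2 was low where Irf4 alone was detected, with 148 CPM against 228 in barcodes with neither in Ga (log2 ratio -0.62, -0.78 to -0.47) and 158 against 223 in Gc (-0.50, -0.64 to -0.37). Where Nr4a1 alone was detected, Btg2 was at 233 CPM in Ga and 238 in Gc, with log2 ratios over neither of 0.030 (-0.12 to 0.18) and 0.091 (-0.058 to 0.24). The Irf4-only and Nr4a1-only intervals of Btg2 do not overlap in either library. With both detected, Btg2 was at 195 CPM in Ga (log2 ratio -0.23, -0.36 to -0.10) and 224 in Gc (0.0047, -0.10 to 0.11).

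Tob2 was high where both were detected, at 63.2 CPM in Ga and 64.5 in Gc, with log2 ratios over neither of 1.32 and 1.28 and lower bounds of 1.07 and 1.06. With Irf4 alone its ratios were -0.082 in Ga and -0.036 in Gc, with intervals that hold 0, and with Nr4a1 alone 0.40 (-0.026 to 0.81) and 0.46 (0.058 to 0.84). Btg1 was higher in all 3 classes of both libraries, at 0.57 and 0.40 with both, 0.24 and 0.27 with Irf4 alone and 0.15 and 0.13 with Nr4a1 alone. Tob1 was lowest with both, at 13.1 CPM in Ga and 11.5 in Gc, or log2 ratios of -1.39 (-1.91 to -0.92) and -1.38 (-1.87 to -0.93). With Irf4 alone it was at 18.3 CPM in Ga (13.4 to 24.5) and 23.9 in Gc (18.9 to 30.0), and with Nr4a1 alone at 41.0 in Ga (31.7 to 52.2) and 20.9 in Gc (14.6 to 29.1). The Irf4-only and Nr4a1-only intervals of Tob1 are separate in Ga and overlap in Gc.

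**Figure D4:**
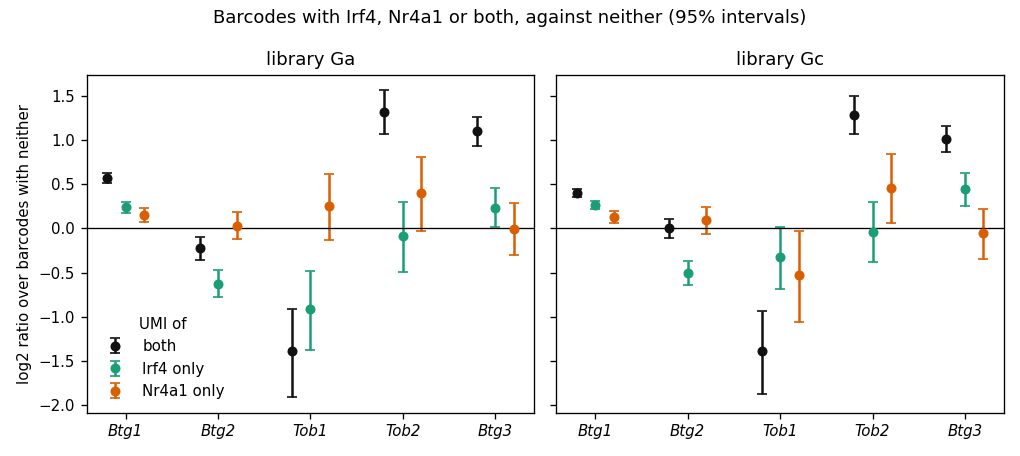
Log2 ratio over barcodes with neither gene (vertical axis) for Btg1, Btg2, Tob1, Tob2 and Btg3 (horizontal axis) in barcodes with UMIs of both Irf4 and Nr4a1 (black), Irf4 only (green) and Nr4a1 only (orange), in libraries Ga and Gc with 95% intervals. Btg2 is low with Irf4 only, at -0.62 and -0.50, and near 0 with Nr4a1 only, whereas Tob2 and Btg3 are past 1.0 where both were detected.

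Btg1 was also higher in barcodes that lacked Irf4 and Nr4a1 but held another TCR-response gene (Nr4a2, Nr4a3, Egr1, Egr2, Egr3 or the IL-2 receptor gene Il2ra). Against barcodes without any of these 8 genes, its log2 ratio was 0.16 for Ga (0.10 to 0.21), 0.12 for Gb (0.034 to 0.20), 0.094 for Gc (0.051 to 0.14), 0.10 for Ha (0.037 to 0.16) and 0.084 for Hb (0.012 to 0.16). The 5 ratios have one sign and no interval holds 0, including Ha, where positive barcodes were the lower ones. Tob2 stood at -0.068 for Ga (-0.41 to 0.26), 0.40 for Gb (-0.058 to 0.82), 0.30 for Gc (0.030 to 0.56), 0.50 for Ha (0.20 to 0.79) and 0.40 for Hb (0.0012 to 0.77), and its intervals for Ga and Gb held 0. Tob1 stood between -0.31 in Hb and -0.11 in Gb, with every interval holding 0.

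In silent barcodes the log2 span over libraries was 0.47 for Tob1, 0.44 for Btg1, 0.29 for Tob2 and 0.27 for Btg2. From high to low, Btg1 stood at 1059.9 CPM in Gc, 825 in Ga, 813 in Hb, 804 in Gb and 779.6 in Ha, and the intervals of Ga, Hb and Gb overlap. The level in Gc was 1.29 times that in Ga (log2 0.36, 0.34 to 0.39), and 35 of 9989 genes (0.350%) were as far above the next library in the library where they were highest. Another 39 genes lay as far below all other libraries in Gc, the library with the low Trac level, and what part that has in the Btg1 value was not tested. Without Gc the span of Btg1 over silent barcodes was 0.081 on the log2 scale, against 0.44 with it, and the median span of all genes was 0.23.

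Btg2 in silent barcodes stood at 269 CPM in Gb, 268 in Ha, 258 in Hb, 228 in Ga and 223 in Gc, where the intervals of neighbours overlap except those of Hb and Ga. Its span was 0.27 on the log2 scale (0.22 to 0.33). Tob1 stood at 41.6 CPM in Ha, 37.4 in Gb, 36.0 in Hb, 34.5 in Ga and 30.0 in Gc, a span of 0.47 (0.34 to 0.60), and each library overlaps its neighbour. Tob2 stood at 30.3 CPM in Ha, 27.2 in Gb, 26.5 in Gc, 25.3 in Ga and 24.9 in Hb, a span of 0.29 (0.13 to 0.44), and each library overlaps its neighbour. None of these spans reached 1.5-fold, which 5.99% of genes did. Over all Cd4-positive barcodes Tob1 alone reached it, with a log2 span of 0.59, as did 11.5% of genes. Of all genes in silent barcodes, 23.2% were highest in Gc like Btg1, 17.6% in Gb like Btg2 and 24.5% in Ha like Tob1 and Tob2, with 18.9% for Ga and 15.8% for Hb.

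Subsets of silent barcodes were compared to see which cells carry the members. Barcodes with the regulatory T cell gene Foxp3 had low Tob1: 5.89 against 35.3 CPM in Ga (4 UMIs in Foxp3 barcodes of each of Ga and Gb, log2 ratio -2.58, -4.46 to -1.22), 10.6 against 38.0 in Gb, 16.3 against 30.4 in Gc and 22.6 against 42.1 in Ha. In Hb the levels were 35.2 and 36.0 CPM, with a ratio of -0.031 (-0.91 to 0.72). Btg1 was higher in Foxp3 barcodes of Ga, at 938 (867 to 1014) against 821 CPM, and of Gc, at 1216 (1138 to 1299) against 1056. Btg2 was lower in Foxp3 barcodes, at 184 (153 to 219) against 229 CPM in Ga and 140 (114 to 170) against 225 in Gc. In Gb, Ha and Hb the intervals of Btg1 and of Btg2 with and without Foxp3 overlapped. Foxp3 was found in 3.62% of positive against 2.58% of silent barcodes for Ga, 10.0% against 1.96% for Gb and 3.95% against 2.18% for Gc. It was found in 13.1% against 2.19% for Ha and 6.06% against 1.46% for Hb. These shares are not thinned and carry depth, on 22, 5, 27, 8 and 2 positive barcodes with Foxp3. Those barcodes averaged 18673 UMIs in Ga and 24280 in Gc, against 11150 and 11812 in positive barcodes without Foxp3. Without Foxp3 barcodes the Tob1 ratio of positive over silent was -0.68 for Ga, -2.11 for Gb and -0.71 for Gc. It was -0.68 for Ha and 0.49 for Hb. With Foxp3 barcodes the values were -0.68, -2.26, -0.73, -0.62 and 0.47 in that order. Btg1 without Foxp3 barcodes was at 1068 against 821 CPM in positive and silent barcodes of Ga and at 1311 against 1056 in Gc. Btg2 without Foxp3 barcodes was at 187 against 229 CPM in Ga and 192 against 225 in Gc.

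The interferon-induced gene Gbp2 and the recent thymic emigrant gene Dntt divided silent barcodes with small differences in Btg1. With Gbp2, Btg1 was at 1121 CPM against 994 without it in Gc (log2 ratio 0.17, 0.14 to 0.21), at 857 against 800.5 in Ga (0.099, 0.057 to 0.14) and at 771 against 781 in Ha. Btg2 was lower with Gbp2 in every library, at 215 against 238 CPM in Ga, 256 against 271 in Gb and 210 against 237 in Gc. It was at 238 against 274 in Ha and 243 against 261 in Hb, with separate intervals in Ga, Gc and Ha. For Tob1 the intervals were separate in Ha alone, at 33.8 against 43.1 CPM. By Dntt the Btg1 ratios lay between -0.076 in Hb and -0.0084 in Ga. Cd4-negative barcodes with the gamma-delta T cell gene Trdc had lower Btg2 than silent Cd4 barcodes, with log2 ratios of -0.30 for Ga, -0.43 for Gb, -0.34 for Gc, -0.18 for Ha and -0.38 for Hb and no interval holding 0.

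Co-occurrence of the members within silent barcodes was then measured. With barcodes thinned to 1500 UMIs, 60 ratios were formed (12 ordered pairs of members in 5 libraries) of the level of one member between barcodes with and without another. The intervals of 57 held 0. The 3 others were all above 0, namely Tob1 by Btg2 (0.53, 0.024 to 1.03) and Btg2 by Tob1 (0.44, 0.078 to 0.79) in Hb, which share their UMIs, and Tob2 by Btg1 in Gc (0.77, 0.13 to 1.46). Tob1 by Btg2 was above 0 in all 5 libraries, at 0.18 to 0.53, as was Btg2 by Tob1, at 0.18 to 0.44, although the intervals outside Hb held 0. Intervals this wide do not show that members are independent.

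Btg3, a further member of the family that also binds CCR4-NOT, was like Tob2 in some libraries and classes and unlike it in others. It was at 99.95 CPM for Ga, 97.7 for Gb, 104.6 for Gc, 73.3 for Ha and 102.8 for Hb in positive barcodes, against 65.4 for Ga, 67.1 for Gb, 67.0 for Gc, 69.6 for Ha and 68.1 for Hb in silent ones. The log2 ratio was 0.61 in Ga (0.48 to 0.74) and 0.64 in Gc (0.53 to 0.76), near those of Tob2. It was 0.54 in Gb (0.10 to 0.95), where Tob2 was at 0.0092, and 0.074 in Ha (-0.33 to 0.45), where Tob2 was at 0.57. With Irf4 alone Btg3 was at 77.0 CPM in Ga and 91.0 in Gc, and with Nr4a1 alone at 65.2 and 64.5, against 65.4 and 67.0 with neither. Over the bins of Irf4 and Nr4a1 UMIs it was highest at 4 or more, with 127 CPM in Ga and 126 in Gc. Btg3 overlaps Cxadr and Gm49590, and Btg4, known from oocytes, had 8 UMIs in all Cd4-positive barcodes and was not measured further.

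The genes with which the family works were mostly level between the classes. Counts of this and the later lists stand beside the shares of all genes past 1.5-fold. Higher and lower, these shares were 14.5% and 11.0% in Ga, 16.6% and 12.8% in Gb and 14.2% and 9.18% in Gc. They were 19.9% and 11.0% in Ha and 15.9% and 14.5% in Hb. Of 11 subunits of CCR4-NOT, 0 were past 1.5-fold in Ga and Gc, and 1 was higher in each of Gb, Ha and Hb, with list medians of 0.014 to 0.096 on the log2 scale against -0.0015 to 0.10 over all genes. Cnot7, a catalytic subunit that BTG and TOB proteins bind directly, had log2 ratios of 0.17 in Ga and 0.35 in Gc, and Cnot8, the other such subunit, 0.012 and -0.050. Of 14 partners and decay factors, 2 were higher in Ga, Gc and Ha, 1 in Gb and 0 in Hb, and 1 was lower in Gb and in Hb. Prmt1, the methyltransferase bound by Btg1 and Btg2, was at 75.1 against 47.5 CPM in Ga (0.66, 0.51 to 0.82) and 68.3 against 43.5 in Gc (0.65, 0.51 to 0.79). Pabpc1, which Tob proteins bind, had ratios of 0.39 and 0.42 in the same libraries.

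Other proteins that bring deadenylases to mRNA differed among themselves. Of 10 such genes, 2 were higher and 1 lower in Ga and in Gc, with list medians of -0.12 and -0.10. Over all genes 14.5% were higher and 11.0% lower in Ga, and 14.2% and 9.18% in Gc, so these counts lie near those shares. Zfp36, which binds AU-rich elements of cytokine mRNA, was at 72.3 against 36.1 CPM in Ga and 71.5 against 41.4 in Gc. Its paralog Zfp36l1 had log2 ratios of 0.80 and 0.91. The paralog Zfp36l2 had ratios of -0.67 and -0.64, on the other side. Pum2, Rc3h1, Rc3h2 and the Tnrc6 genes stayed within 1.5-fold in Ga and Gc.

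The quiescence genes stood lower as a list, and in Ga and Gc Btg1 stood on the other side with a few of them. Of 20 genes of the naive state and quiescence, 7 were lower and 1 higher past 1.5-fold in Ga and in Gc, 10 and 0 in Gb, 11 and 0 in Ha, and 1 and 0 in Hb, with list medians of -0.46, -0.36, -0.48, -0.62 and -0.15. Klf2, a transcription factor of naive T cells, was at 291 against 583 CPM in Ga and 282 against 520.1 in Gc. S1pr1, the receptor for egress from lymphoid tissue, had log2 ratios of -1.13 in Ga and -0.89 in Gc. Ccr7, a chemokine receptor of naive cells, was on the side of Btg1, at 0.90 and 0.82 in Ga and Gc, but at -0.37 in Gb and -0.87 in Ha. Bach2, Satb1 and Vsir, named after their values were seen, were on that side too with intervals above 0, at 0.33 and 0.23, 0.26 and 0.13, and 0.24 and 0.52 in Ga and Gc, against 0.37 and 0.30 for Btg1. In Gb and Ha they were below 0, with Bach2 at -0.29 and -0.42 and Satb1 at -0.82 and -1.04. Vsir was at -0.24 and -0.19 there, with intervals that hold 0. In Hb Satb1 was at -0.58, while Bach2 (0.058) and Vsir (0.062) had intervals that hold 0. These lists were chosen with earlier results of these data known, so the contrast with Btg1 is a description.

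**Figure D5:**
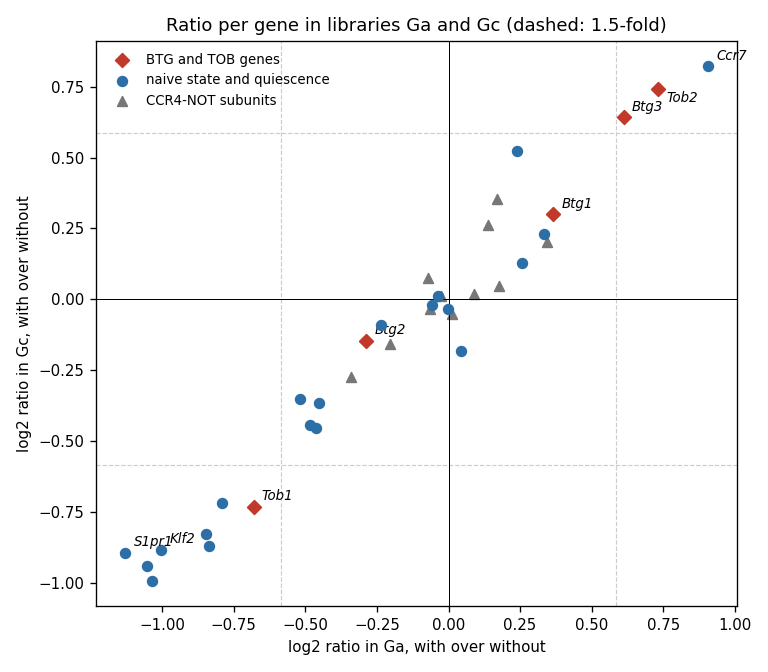
Log2 ratio of positive over silent barcodes in library Ga (horizontal axis) and Gc (vertical axis) per gene, for BTG and TOB genes (red diamonds), naive state and quiescence genes (blue circles) and CCR4-NOT subunits (grey triangles); dashed lines mark 1.5-fold. Tob2, Btg3 and Ccr7 lie at the upper right, Tob1 lies with Klf2 and S1pr1 at the lower left, and Btg1, Btg2 and the CCR4-NOT subunits lie inside the dashed lines.

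Genes of the cell cycle were given beside the members because BTG and TOB proteins restrain entry into S phase. Among 11 genes of G1, 7 were measured in Ga and 9 in Gc, of which 4 were higher in each, and 2 were lower in Gc. Cdk6, a kinase that drives G1, was past 1.5-fold higher in all 5 libraries, with a median log2 ratio of 1.46. Among 8 inhibitors, 7 were measured in Ga and Gc, of which 5 and 3 were lower, and Cdkn1a, the p21 inhibitor, was higher at 3.61 and 3.40. Of 13 proliferation genes, 1 of 6 measured was higher in Ga and 1 of 8 in Gc, with 2 lower in Gc. Of 8 measured p53 targets, the group to which Btg2 also belongs, 4 were higher and 1 lower in Ga and in Gc, and Bbc3, an inducer of cell death, was higher past the fold in all 5 libraries with a median of 1.03. In positive barcodes of Gb and Hb, Bbc3 rested on 9 and 8 UMIs, with intervals that hold 0.

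Signals that could reach the members through other pathways gave mixed lists. Immediate-early genes were higher in 12 of 17 measured in Ga and 14 of 18 in Gc, with 0 lower, and the split itself rests on genes of this kind. Interferon gamma targets were lower in 5 of 12 in Ga and 7 of 12 in Gc, and higher in 5 of 12 in Gb. Of 8 genes of the TGF-beta pathway, whose SMAD proteins Tob1 binds, 2 were lower in Ga and 0 in Gc. Of 5 measured glucocorticoid response genes, 1 was higher and 1 lower in Ga and 2 higher and 1 lower in Gc. Klf9 was higher past the fold in all 5 libraries, on 6 UMIs in positive barcodes of Hb, where its interval holds 0. Beside these counts, 14.5% of all genes were higher and 11.0% lower in Ga, 14.2% and 9.18% in Gc, and 16.6% were higher in Gb.

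Across the 10 values of a gene (5 libraries, positive and silent), the genes most like each member were found by Pearson's r of log2 CPM among the 541 to 542 genes with at least 100 UMIs in each value, and the values share libraries and barcodes. Btg1 was most like Erbin (0.90), Mycbp2 (0.84), Kmt2a (0.83), Cnot2 (0.83) and Cdk17 (0.82). Btg2 was most like Arhgdib (0.94), Dnajc15 (0.93), Pdcd4 (0.92), Epsti1 (0.92) and Tle5 (0.91). For Tob1 these were Lck, Rpl14, Itsn2, Rpl29 and Baz2b (0.94 to 0.88) and for Tob2 Sumo2, Actb, Cox7c, Atp5e and Actr3 (0.94 to 0.89), on values that went down to 4 UMIs for Tob1 and 13 for Tob2.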

How the data were processed

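Single-cell RNA was measured with the 10x Genomics 5′ kit, version 2, in 5 mouse samples. The authors deposited UMI counts in 2 aggregated matrices with 1 value for each gene and barcode. Build mm10 and Cell Ranger 6.0.0 are named per the submitters' processing notes, and per the file headers cellranger 7.1.0 wrote the matrices. The sources used here do not say whether introns were counted.

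Barcodes were kept with at least 500 UMIs and at most 10% mitochondrial UMIs, and no doublet caller was run. UMIs were summed per library and barcode class (Python 3.11.15, numpy 2.4.6, scipy 1.17.1, pandas 2.3.3), with 0.5 UMI added for ratios over all genes. With 1 library per group and no map of suffixes to samples there was no test. Separate cells are not replicates, and intervals cover counting error only. The fold rule was tested on simulated counts. The members, lists and tests were chosen with earlier results of these data known, and in lists up to 3 genes per direction were named by size of median ratio, except items not reported here. Barcodes under 1500 UMIs (233 Cd4-positive ones) were left out of thinning. Alternatives changed the filter, split, scaling and barcodes used, and those without Foxp3 barcodes were added after seeing the data.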

Additional observations from a re-analysis of the deposited data

How the results depend on the processing

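The 20 ratios of members were recomputed under up to 16 alternatives each, 318 in all, of which 222 moved by less than the counting interval, 91 moved further and 5 turned the sign of a value past 1.5-fold with no UMI added (Tob1 in Gb and Ha). Btg1 stayed above 0 for Ga, Gb and Gc under all 16, Tob1 below 0 and Tob2 above 0 for Ga and Gc under all 16, and in Ha Btg1 changed sign under 7 and Tob2 under 4. The values that moved follow, and the cause was not tested. With levels from barcodes thinned to 1500 UMIs, the log2 ratio of Btg1 was 0.75 for Gb and 0.059 for Ha and Btg2 was -0.55 for Gb, -0.32 for Gc, 0.0075 for Ha and 0.49 for Hb. Tob1 was -0.24 for Ga and 0.0064 for Ha and Tob2 was 1.11 for Ga, 0.21 for Gc and 1.95 for Hb. With the split also made on thinned UMIs, Btg1 was 0.52 for Ga, 1.21 for Gb, 0.46 for Gc, 0.53 for Ha and -0.29 for Hb and Btg2 was -0.19 for Ga, -1.41 for Gb, -0.47 for Gc, 0.40 for Ha and 1.36 for Hb. Tob1 was -1.22 for Ga, 0.44 for Gb, -1.08 for Gc and 0.46 for Ha and Tob2 was 1.62 for Ga and 1.46 for Hb. With at least 2 UMIs of Irf4 and Nr4a1 for positive barcodes, Btg1 was 0.49 for Ga, 1.04 for Gb, 0.38 for Gc, 0.027 for Ha and -0.011 for Hb and Btg2 was -0.97 for Gb and 0.10 for Ha. Tob1 was -1.22 for Ga, -1.0 for Gc and 0.25 for Ha and Tob2 was 1.07 for Ga, 0.99 for Gc, -0.027 for Ha and 2.02 for Hb. With Irf4 alone for the split, Btg1 was 0.41 for Ga, 0.81 for Gb, 0.33 for Gc and -0.12 for Ha and Btg2 was -0.40 for Ga. Tob1 was -1.16 for Ga and Tob2 was -0.46 for Ha. With Nr4a1 alone, Btg1 was 0.41 for Ga, 0.43 for Gb and -0.00081 for Hb and Btg2 was -0.076 for Ga and 0.076 for Gc. Tob1 was -1.02 for Gc and -0.49 for Hb and Tob2 was 1.06 for Ga and 1.07 for Gc. Without the 6% of barcodes with most UMIs, Btg1 was 0.47 for Ga and 0.049 for Ha and Btg2 was -0.17 for Ga, -0.29 for Gc and 0.21 for Ha. Tob2 was 0.51 for Gc and -0.32 for Ha. Without barcodes holding a marker of another cell type, Btg1 was 0.069 for Gb, 0.34 for Gc and 0.25 for Ha and Btg2 was 0.51 for Ha. Tob1 was -1.03 for Gc and 0.32 for Ha and Tob2 was 0.44 for Ga. Without Foxp3 barcodes, a setting added after seeing the data, Btg2 was -0.23 for Gc. As UMIs per barcode, Btg1 was 0.74 for Ga, 0.91 for Gb, 0.77 for Gc, 0.26 for Ha and 0.57 for Hb and Btg2 was 0.082 for Ga, 0.056 for Gb, 0.32 for Gc and 0.35 for Ha. Tob1 was -0.31 for Ga and -0.26 for Gc and Tob2 was 1.10 for Ga, 1.21 for Gc and 1.12 for Ha. As the mean over barcodes of CPM, Btg1 was 0.027 for Ha and Btg2 was 0.12 for Ha. Tob2 was -0.021 for Ha. With Cd3e in place of Cd4, Btg1 was 0.40 for Ga, 0.017 for Gb and -0.13 for Ha and Btg2 was -0.58 for Gb. Tob1 was -0.99 for Ga and -0.64 for Gb and Tob2 was 0.97 for Ga. Tob1 for Gb with at least 2 UMIs and Tob2 for Gb with the thinned split had 0 UMIs in positive barcodes and gave no value.

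The spans over libraries of all Cd4-positive barcodes ranged, leaving out 1 library at a time, over 0.18 to 0.52 for Btg1, 0.29 to 0.30 for Btg2, 0.39 to 0.59 for Tob1 and 0.18 to 0.30 for Tob2, and those of silent barcodes over 0.081 to 0.44, 0.24 to 0.27, 0.27 to 0.47 and 0.13 to 0.29. The lowest value came without Gc for Btg1, Btg2 and Tob1, and for Tob2 without Hb in all and without Ha in silent barcodes. As UMIs per barcode the span was 0.65 for Btg1 and 0.20 for Btg2 in all and 0.51 for Btg1 in silent barcodes. Without barcodes holding other markers it was 0.56 for Btg1 and 0.36 for Btg2 in all and 0.49 and 0.33 in silent barcodes, and thinned it was 0.47 for Btg1 and 0.45 for Tob2 in silent barcodes. At 2-fold the genes counted were 877 for Ga, 1161 for Gb, 860 for Gc, 1360 for Ha and 1379 for Hb, against 2692, 2788, 2559, 3176 and 3063 at 1.5-fold. With at least 20 UMIs in place of 100 they were 4365, 4982, 4213, 5541 and 4903. No paired analysis was possible because each group has 1 sample and the suffixes carry no replicate number. Depth limits Tob1 and Tob2 in the positive barcodes of Gb, Ha and Hb, which held 4 to 35 UMIs of them.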

Other observations

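The libraries fell into clusters in Btg2 of silent barcodes, with 223 CPM in Gc and 228 in Ga, and 258 in Hb, 268 in Ha and 269 in Gb. The share of positive barcodes was 17.6% in Gc and 19.2% in Ga, and 1.19% in Hb, 1.98% in Ha and 2.33% in Gb. The Btg2 log2 span of 0.27 stood at percentile 61.7 of all genes in silent barcodes, whose median span was 0.23. No share of all genes with the same order of libraries is given here. What ties these values together was not tested, and the libraries are in no group.

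Cd4-negative barcodes with Trdc had more Btg3 than silent Cd4 barcodes, with log2 ratios of 0.29 for Ga (0.13 to 0.44), 0.62 for Gb (0.44 to 0.81), 0.29 for Gc (0.14 to 0.43), 0.26 for Ha (0.096 to 0.42) and 0.40 for Hb (0.24 to 0.56). Btg1 in the same barcodes stood between -0.052 in Gc and 0.097 in Gb.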
